A study of Mus musculus with 4 samples.

Results

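The sites described here are adenosines inside B1 elements that lie downstream of a gene or in the distal regions on either side of it. B1 is the mouse member of the Alu repeat family, and a site counts as edited where reads carry G in place of A on the strand of the assigned gene. The members were chosen by measured values: at least 5 reads, at least 3 of them altered, and an editing rate (altered reads over all reads) of 0.05 to 0.95 in at least 1 of the 4 libraries. This left 871 sites in 457 B1 elements assigned to 331 genes, out of 24200 sites of the series that met the same limits and 20206 B1 sites listed in these regions. By position, 226 sites lay downstream (within 1 kb of the gene's 3′ end), 369 in the 3′ distal region (1 to 50 kb beyond it) and 276 in the 5′ distal region (1 to 50 kb before the gene).

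The RNA came from lung endothelial cells (ECs) of 2 male C57/BL6 mice, 2 weeks old and from different litters, called EC1 and EC2. Both mice were inducible ADAR1 knockouts (i-KO), so that control (CON) and 4-OH-tamoxifen-treated (TM) cells alike carried the floxed ADAR1 gene and the inducible Cre recombinase, and TM treatment in culture switched on the Cre that cuts exons 12 to 15 out. The promoter behind this Cre is not given in the sources used here, though the labels call the knockout EC-specific, and no group without the floxed gene but with the agent was among these libraries, so that effects of the agent and of the deletion cannot be told apart. Each mouse gave 1 CON and 1 TM culture with 1 library each, so n = 2 per group, paired by mouse. Where 4 values follow each other, they are CON and TM of EC1 and then the same of EC2. A culture is a population of cells, and loss of editing in some cells cannot be told apart from a partial loss in every cell, nor fewer cells of a type from less RNA per cell.

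ADAR1, the protein of the gene Adar, turns adenosine into inosine in double-stranded RNA, and inosine is read as guanosine in sequencing. B1 elements are short, numerous and alike, so a transcript that holds neighbouring elements in opposite orientation can fold back on itself into a long imperfect duplex, which is the classic substrate of the enzyme. Such duplexes in unedited form can be sensed by antiviral receptors of the cell.

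Adar itself was read first. Its gene count was 9 (CON) and 47 (TM) in EC1, and 16 and 71 in EC2. Sites listed in exons 2 to 11 had a median depth of 152.5 (CON) and 664 (TM) reads in EC1, and of 175 and 967 in EC2. In exons 12 to 14, which are cut out, the CON medians were 145 and 169, EC1 TM listed no site and EC2 TM had 65.5, over 0 to 3 sites a library. The count tables held 131796753 to 207323870 entries per library, and EC2 TM had the most. Of the entries, 0.823% to 0.858% fell on genes and 92.8% to 93.9% on no gene feature. The gene counts of Adar and of the markers thus rest on few of the reads. In EC1 CON the Adar count was 9, though sites in exons 2 to 11 had a median depth of 152.5. Why so few entries fell on genes was not tested. All 8 endothelial markers had counts in every library (1220 to 2136 in sum), against 10 to 39 for 4 leukocyte markers, 5 to 22 for 4 fibroblast markers, 50 to 67 for 2 smooth muscle markers and 0 to 5 for 3 epithelial markers. No library listed a site in 3 of the 4 leukocyte markers or in any of the 3 epithelial ones. Some fibroblast and smooth muscle markers were read less deeply in TM: the median depth at listed sites was 339, 122.5, 447 and 215 reads in Dcn and 72, 24, 118 and 75 in Col1a1, and in Acta2 125 and 279 with CON against no listed site and 51 with TM. Col1a2 was lower too. Pdgfra went the other way, with no listed site and 3 reads with CON against 7.5 and 23 with TM. Myh11 had 3, 7.5, 7 and 6. In EC1 all 8 endothelial markers were also read less deeply in TM. In EC2 Pecam1, Kdr, Tie1 and Erg were lower in TM, and Cdh5, Tek, Emcn and Egfl7 higher. The part of depth and of other cells in the rates below was not tested.

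A pair of densely edited elements shows what such sites look like. Beyond Gtf2h5, the gene of a small subunit of the transcription and repair factor TFIIH, a pair of B1_Mur2 elements on chromosome 17 held 14 and 12 sites, 37123 to 37645 bases past the gene's end. In GENCODE vM21 (build GRCm38, the same as mm10) they lie on the same strand in an exon of Tulp4, a tubby-like protein gene, outside its UTRs. The upstream element, chr17:6122570-6122713, is on the minus strand and the other, chr17:6123012-6123138, on the plus strand, with 299 bases from the end of the first to the start of the second. Both are given 5′ to 3′ on the plus strand as the transcript reads, because they hold the most sites among elements in exons outside UTRs, and capitals mark the edited adenosines.
Gtf2h5 upstream element: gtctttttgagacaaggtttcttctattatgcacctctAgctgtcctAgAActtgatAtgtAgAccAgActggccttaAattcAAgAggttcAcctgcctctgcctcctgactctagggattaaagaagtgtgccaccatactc
Gtf2h5 downstream element: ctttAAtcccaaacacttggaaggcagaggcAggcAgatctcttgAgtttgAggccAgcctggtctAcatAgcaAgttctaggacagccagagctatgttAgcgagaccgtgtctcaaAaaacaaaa

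Set against the reverse complement of the downstream element, the upstream one aligned over 120 bases with 99 identical (82.5%), while in the same direction 25 bases aligned. All 26 edited adenosines of the pair lay in the aligned stretch. Of these, 22 faced a T (U in the RNA), with which A pairs, and 4 faced a C. Among the other 49 adenosines of the pair 33 faced a T, 1 a C, 2 an A and 2 a G, and 11 lay outside the aligned stretch.

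Editing of the pair was lower in TM in both mice. Over the 14 sites of the upstream element the mean rate was 0.215 with CON and 0.119 with TM in EC1, against 0.333 and 0.163 in EC2, at a median depth of 102.5 to 136 reads. Over the 12 sites of the downstream element it was 0.206, 0.124, 0.325 and 0.168 in the same order. Both TM libraries were thus below both CON libraries in each element, and in EC2 all 26 sites had the higher rate in CON. Neighbouring adenosines had very different rates. The A at position 6122636 had 107 altered of 131 reads with CON (0.817) and 67 of 105 with TM (0.638) in EC1, against 94 of 106 (0.887) and 82 of 111 (0.739) in EC2, whereas the A at 6122633, 3 bases before it, did not pass 0.0571 in any library.

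**Figure D1:**
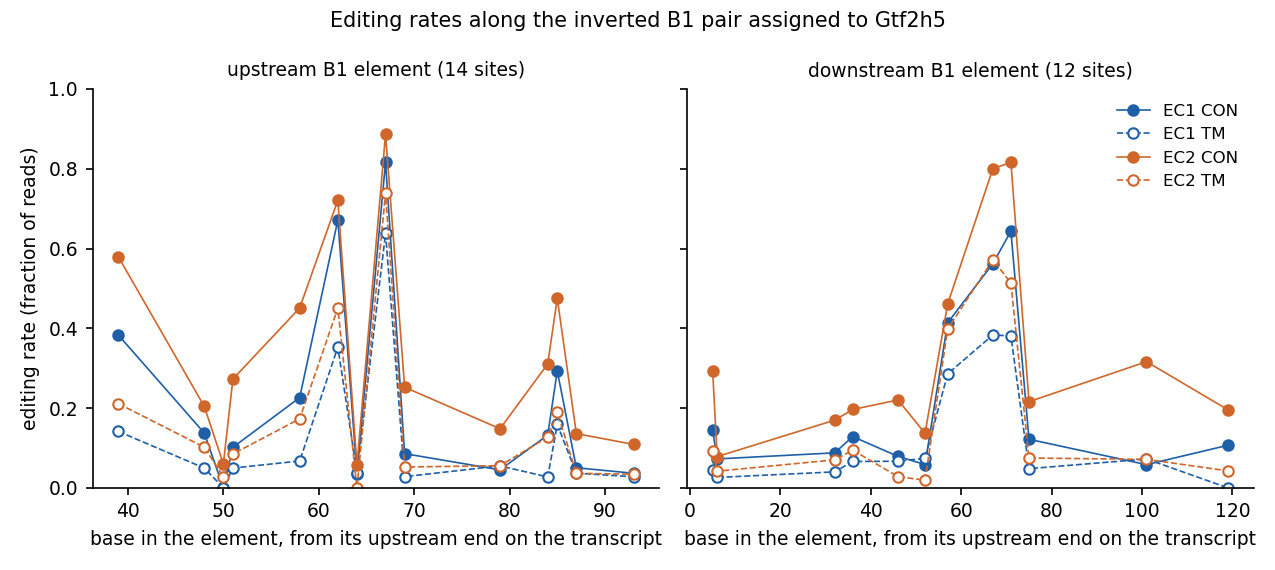
Editing rate (fraction of reads) at each of the 26 edited adenosines of the inverted B1 pair assigned to Gtf2h5, by base in the element; filled points are CON, open points TM, blue EC1 and orange EC2, with 1 library each, and a point at 0 is a site that the library does not list. EC2 CON was the highest at all 26. In the upstream element the rate peaked at 6122636 in every library, and in the downstream one at 6123082 with CON and at 6123078 with TM.

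Other dense elements could be read whole or in part. The B1_Mm element downstream of Arpin, an inhibitor of the Arp2/3 actin-branching complex, lies at chr7:79924439-79924571 in an exon of Gm44950 and held 12 sites, given here on the minus strand, as the gene reads.
Arpin element: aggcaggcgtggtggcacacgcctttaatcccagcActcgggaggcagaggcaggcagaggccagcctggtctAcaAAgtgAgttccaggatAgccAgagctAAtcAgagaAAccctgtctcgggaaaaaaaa

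For elements in UTRs only 29 bases around single sites are given, on the strand of the gene, with the edited A in capitals: the site lower in TM in both mice in Lix1l (chr3:96625792-96625820, plus strand), the site of each Xrn1 element with the highest mean rate (chr9:96056120-96056148 and chr9:96057226-96057254, plus strand), and the same for Nipa1 (chr7:55977606-55977634, minus strand) and the first Snap23 element (chr2:120600823-120600851, plus strand).
Lix1l site: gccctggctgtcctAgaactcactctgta
Xrn1 element 1 site: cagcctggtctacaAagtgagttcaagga
Xrn1 element 2 site: gcctcccaagtgttAgaattaaaggtgtg
Nipa1 site: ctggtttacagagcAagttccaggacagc
Snap23 element 1 site: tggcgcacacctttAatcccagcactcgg

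Edited adenosines differed from others in the bases beside them. Sequence was at hand for 269 of the 871 sites, those in a GENCODE vM21 exon, and all 269 were an A on the strand of the assigned gene. The base before the edited A was a T at 98 sites (36.4%, 95% Wilson interval 30.9% to 42.3%), against 392 of the 2566 other adenosines of the same elements (15.3%, 13.9% to 16.7%). It was a G at 23 sites (8.55%, 5.76% to 12.5%), against 696 of the others (27.1%, 25.4% to 28.9%). The base after was a G at 127 sites (47.2%, 41.3% to 53.2%), against 913 of the others (35.6%, 33.8% to 37.5%). A and C before the site were about as common at edited as at other adenosines, at 27.5% each against 26.2% and 31.4%. Sites after a T had mean rates of 0.290 in EC1 CON and 0.342 in EC2 CON, and sites after a G 0.0955 and 0.224, over 73 and 76 against 12 and 17 sites. These intervals cover counting error alone, and sites of 1 element are not independent.

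For 26 elements with 3 or more sites, the element and its nearest listed B1 of the opposite orientation were both in exons and could be aligned. The reverse complements were 70.2% to 91.4% identical over 60 to 146 aligned bases. Of the 146 edited adenosines in these elements, 69.2% (61.3% to 76.1%) faced a T and 39 (26.7%, 20.2% to 34.4%) a C. Of the 797 other adenosines, 538 (67.5%, 64.2% to 70.7%) faced a T and 50 (6.27%, 4.79% to 8.18%) a C. Edited adenosines thus stood opposite a C more often than the others of the same elements, and only 3 of the 146 lay outside the aligned stretch, against 155 of the 797. Among edited adenosines opposite a C, the mean rate was 0.232 with CON and 0.167 with TM in EC1, against 0.289 and 0.161 in EC2. Opposite a T it was 0.210, 0.109, 0.259 and 0.133, lower than opposite a C in each library.

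**Figure D2:**
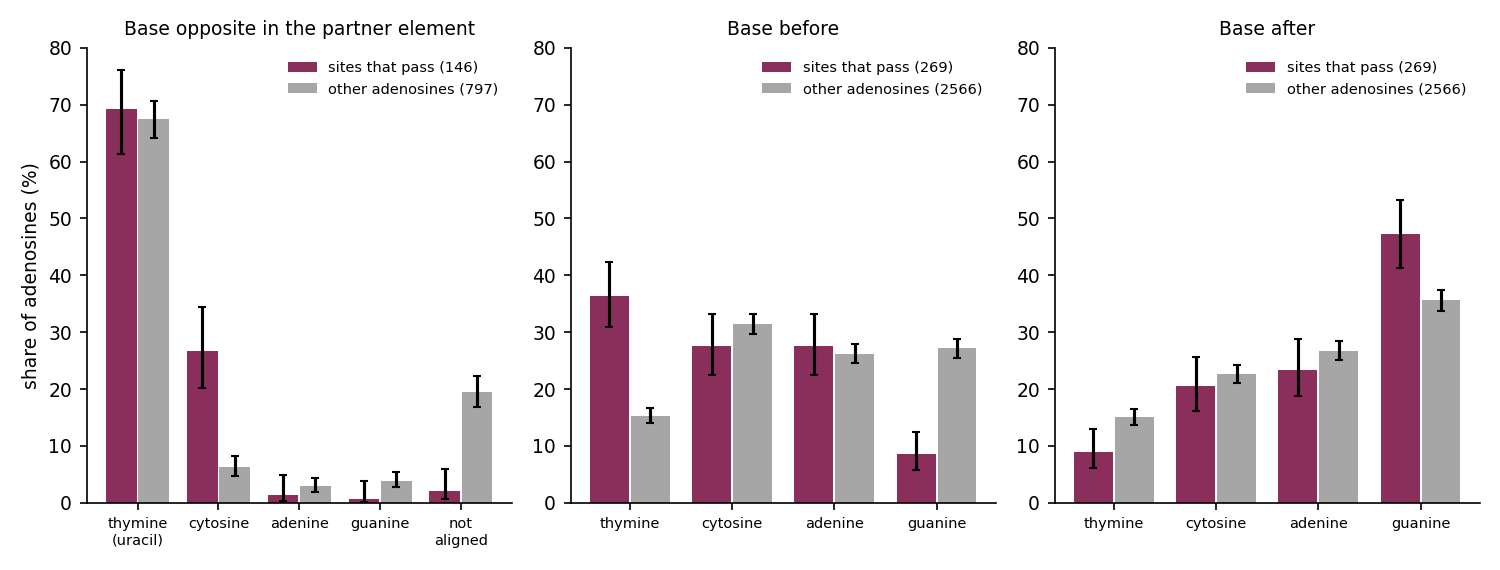
Shares (%) of adenosines by the base opposite in the nearest listed inverted B1 element (left, 26 elements), by the base before (middle) and by the base after (right), for sites that pass (dark) and the other adenosines of the same elements (grey). Bars start at 0 and error bars are 95% Wilson intervals. Edited adenosines stood more often opposite a cytosine (26.7% against 6.27%) and after a thymine (36.4% against 15.3%), and less often after a guanine (8.55% against 27.1%).

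Edited elements more often had a listed inverted partner close by than elements with no passing site. Among the 83 elements with 3 or more sites, 59 (71.1%, 60.6% to 79.7%) had a listed B1 of the opposite orientation within 1 kb, as did 182 of the 374 elements with 1 or 2 sites (48.7%, 43.6% to 53.7%). Among the 4096 B1 elements of the same regions that were read at 5 or more reads with no passing site, 912 (22.3%, 21.0% to 23.6%) had one. Best depth differed too, with medians of 36, 14.5 and 11 reads in these 3 classes. Among elements read at 20 or more reads the shares were 67.7%, 53.6% and 20.5%, in the same order. A partner counts here only where the site table lists a site in it, and no library lists a site without an altered read. A partner thus had to carry altered reads itself, so these shares depend on editing of the partner as well as on its position. The part of this and of depth in these shares was not tested further.

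Sites were fewer in the TM libraries. Of the 871 sites, 471 passed the limits with CON and 247 with TM in EC1, and 432 and 365 in EC2. Both TM libraries were below both CON libraries, also EC2 TM, which had the most entries in its count table. Among the members that passed in a library, the median depth was 19 and 21 reads in EC1 and 22 and 25 in EC2. Of the sites, 493 passed in 1 library and 78 in all 4. In EC1, 327 sites passed in CON alone, 103 in TM alone and 144 in both, and in EC2 the numbers were 247, 180 and 185. As a share of all sites that passed in the same library, B1 sites downstream and distal made up 3.93% with CON and 2.6% with TM in EC1, against 4.06% and 2.98% in EC2. Close to the limits, 93 to 168 sites a library passed with exactly 3 altered reads, at median rates of 0.214 to 0.231, and 258 to 395 sites that met the other limits were left out with 2, at lower median rates.

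The mean editing rate was lower in TM in both mice. Taking the sites passed by either library of a mouse, EC1 had 0.285 with CON and 0.191 with TM (574 sites), EC2 0.281 and 0.207 (612 sites). The difference CON minus TM was 0.0945 in EC1 and 0.0743 in EC2, or 0.0844 ± 0.0143 (SD, n = 2 mice). The exact sign permutation test over 2 mice (two-sided) gave p = 0.5, the smallest p it can give. These rates also chose the sites, and a site that a library does not list enters as 0, as deposited. No library lists a site without an altered read, so an unlisted site may have had no altered reads or no reads at all, and of the 574 sites of EC1 the TM library left 143 unlisted and CON 44, and of the 612 of EC2 90 and 86. Another set held sites that passed in the other mouse and were read at least 5 times in each library of the mouse measured. To be listed, such a site still had to hold an altered read in each of these libraries. Over this set EC1 had 0.250 with CON and 0.189 with TM (305 sites), EC2 0.281 and 0.174 (298 sites). Of these sites 208 (68.2%) and 230 (77.2%) had the higher rate in CON, against 53.1% and 57.4% over all sites of the series taken the same way.

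By region, the downstream and 3′ distal sites were lower in TM in both mice and the 5′ distal sites in EC1. Downstream of genes the mean rate was 0.272 with CON and 0.141 with TM in EC1, against 0.301 and 0.165 in EC2. In the 3′ distal region it was 0.273, 0.166, 0.291 and 0.192. In the 5′ distal region it was 0.311, 0.262, 0.247 and 0.273, so the 2 mice went opposite ways there. The 5′ distal sites of EC2 also differed in how many were listed, with 44 unlisted in CON and 17 in TM. Where both libraries of EC2 listed the site at 5 or more reads, the 5′ distal rate was 0.284 in CON and 0.240 in TM (98 sites), and in EC1 0.286 and 0.257 (109 sites). Within the 3′ distal region, the 116 sites up to 5 kb from the gene (80 measured in EC1 and 95 in EC2) had a mean rate of 0.266 with CON and 0.0866 with TM in EC1, against 0.282 and 0.124 in EC2, and the 253 sites further away 0.277, 0.202, 0.297 and 0.233. No test of the difference between regions was made, since 2 mice could not reach a threshold.

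**Figure D3:**
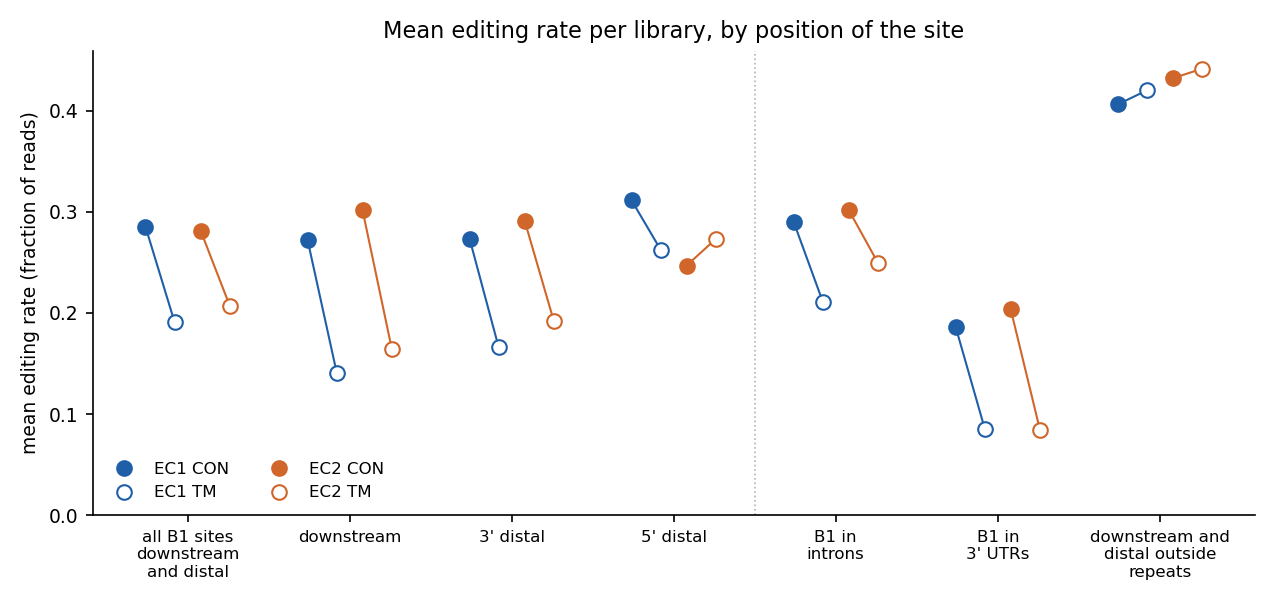
Mean editing rate (fraction of reads) in each library over sites passed by either library of the mouse, for B1 sites downstream and distal (left of the dotted line, together and by region) and for 3 other classes of sites (right); filled points are CON, open points TM, lines join the libraries of a mouse. Every class of B1 sites was lower in TM in both mice except the 5′ distal sites, which were higher in TM in EC2 (0.273 against 0.247).

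Compared with like sites, the downstream and distal B1 sites had CON rates close to those of intronic B1 sites (0.290 in EC1 and 0.302 in EC2) and a difference from TM between those of B1 sites in introns (0.0790 and 0.0522) and in 3′ UTRs (0.101 and 0.119). B1 sites in 3′ UTRs had lower rates in CON, 0.186 and 0.204, and in TM, 0.0854 and 0.0847. Downstream and distal sites outside repeats had 0.406, 0.420, 0.432 and 0.441, slightly higher in TM in both mice. Unlisted sites count as unedited here, 226 with CON and 177 with TM in EC1, against 287 and 117 in EC2. Over sites that both libraries of a mouse listed at the depth limit or above, the rates were 0.452, 0.462, 0.478 and 0.467. There TM was higher in EC1 and lower in EC2. These are values of 2 mice side by side, with no test between the classes.

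The annotation in GENCODE vM21 bears on what downstream and distal mean. On the strand of the assigned gene, 195 of the 871 sites (22.4%) lay in an annotated UTR, 69 in an exon outside a UTR, 273 in an intron of a transcript and 334 (38.3%) in no transcript. Of the 195 UTR sites 134 belonged to a transcript of the assigned gene, 91 of them downstream, so that vM21 places these within the gene that the site table ends before them. The 45 UTR sites labelled 5′ distal all belonged to another gene. Sites in a UTR had mean rates of 0.244 with CON and 0.121 with TM in EC1, against 0.264 and 0.117 in EC2. Sites in no transcript had 0.326, 0.231, 0.310 and 0.248, and sites in introns 0.283, 0.201, 0.236 and 0.231. Of the 5′ distal sites, the 109 in no transcript had 0.367, 0.339, 0.291 and 0.364. GENCODE vM21 is not known to be the annotation the authors used.

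The elements themselves came in both orientations. Relative to the assigned gene, 475 sites (54.5%, 51.2% to 57.8%) lay in an element on the same strand and 396 on the opposite one. Downstream of genes the share on the same strand was 68.1% (61.8% to 73.9%), in the 3′ distal region 49.1% (44.0% to 54.1%) and in the 5′ distal region 50.7% (44.9% to 56.6%). In elements of at least 130 bases, counted from the element's own 5′ end, 76.6% of the 359 sites on the same strand and 73.3% of the 330 on the opposite strand fell in bases 26 to 100. The most common subfamilies were B1_Mus1 (210 sites), B1_Mus2 (166), B1_Mur4 (122), B1_Mur2 (112) and B1_Mm (99). All 5 had lower mean rates in TM in both mice, with differences of 0.0213 (B1_Mus2, EC2) to 0.124 (B1_Mur4, EC1). The 7 sites of the subfamily B1F went the other way, with 0.204 with CON and 0.464 with TM in EC1, against 0.373 and 0.473 in EC2 over 5 sites in each mouse.

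Site by site, reads were compared within each mouse by Fisher's exact test (two-sided) over all sites of the series that passed in the other mouse and were read at least 5 times in each library, with Benjamini-Hochberg adjustment at 0.05. Such a test compares the 2 libraries, not the conditions. Of 305 member sites tested in EC1, 9 were lower in TM (2.95%) and 0 higher, against 1.07% lower and 0.0763% higher over all 7867 sites tested. Of 298 in EC2, 24 were lower (8.05%) and 0 higher, against 3.04% and 0.142% of 7753. Calls clustered in the Gtf2h5 pair: the 24 of EC2 include its sites at 6122608, 6122631, 6123082, 6122627, 6122653 and 6123078. The sites at 6122608, 6122631 and 6123082 were also among the 9 of EC1. Sites of 1 element can share reads, so these are not counts of independent sites, and the shares without this pair were not taken. At an unadjusted p under 0.05, Fisher's exact test gave 38 lower and 2 higher in EC1 and 75 lower and 0 higher in EC2, against 5.71% and 1.53% of all sites tested in EC1 and 9.04% and 1.25% in EC2. Of 207 member sites tested in both mice, 4 were lower in both (1.93%, against 0.962% of all 5404) and 0 higher in both (0.037% of all). With the reads of both mice in 1 exact Mantel-Haenszel test with the mouse as a replicate block, over the 283 members listed at 5 or more reads in all 4 libraries, 43 were lower (15.2%, against 4.97% of all 7407 sites) and 0 higher (0.378% of all). A call here also asked for the same direction in both mice. In the tests within a mouse, the reads tested decided only whether a site was listed deeply enough. Here they also decided whether it passed, so these counts are a description. Of these 43, 27 were 3′ distal (of 126), 13 downstream (of 85) and 3 were 5′ distal (of 72). The 3′ distal sites tested include those of the Gtf2h5 pair, and sites of 1 element are not independent here either. Since a library lists no site without an altered read, sites whose editing was lost altogether in TM were not tested.

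The 4 sites called in both mice were in Lix1l and in the Gtf2h5 pair. The site 454 bases downstream of Lix1l, a gene of unsettled function, had 63 altered of 143 reads with CON (0.441) and 13 of 108 with TM (0.120) in EC1, against 109 of 224 (0.487) and 23 of 223 (0.103) in EC2. Both TM libraries were far below both CON libraries, and Fisher's exact test gave adjusted p = 1.53e-05 in EC1 and 2.13e-16 in EC2. It faced a C in the inverted partner. The other 3 sites of this element had rates of 0.0746 to 0.106 with CON in EC1 and 0.0102 to 0.0481 with TM, and in EC2 of 0 to 0.152 with CON and 0.0329 to 0.0469 with TM. The 0 is a site that EC2 CON did not list, not a measured rate.

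In the Gtf2h5 pair the sites at 6122608, 6122631 and 6123082 were called. The first had 49 altered of 128 reads with CON (0.383) and 14 of 99 with TM (0.141) in EC1, against 55 of 95 (0.579) and 23 of 109 (0.211) in EC2, with Fisher's exact test at adjusted p = 0.00767 and 1.01e-05. The second had rates of 0.671, 0.353, 0.721 and 0.450 in the same order (adjusted p = 0.000350 and 0.00370, Fisher's exact test). The third had 0.643, 0.381, 0.816 and 0.514 (adjusted p = 0.0183 and 9.53e-05, Fisher's exact test). In each of the 3 both TM libraries lay below both CON libraries, and in each the base before the A was a T and the base after a G. A read can cover several of these sites, so they are not independent of each other.

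The 6 sites next in line, by the larger of the 2 p-values, were 4 more of the same pair, 1 of Xrn1 and 1 of Rnf125, the gene of a ubiquitin ligase. At 6122627 the rate was 0.226 with CON and 0.0673 with TM in EC1, against 0.451 and 0.173 in EC2, with adjusted p = 0.0553 in EC1 and 0.00145 in EC2 (Fisher's exact test). The Xrn1 site at 96057153 had 5 altered of 17 reads with CON (0.294) and 1 of 58 with TM (0.0172) in EC1, against 8 of 21 (0.381) and 7 of 72 (0.0972) in EC2, with adjusted p = 0.111 in both (Fisher's exact test). The Rnf125 site had rates of 0.186, 0.0900, 0.181 and 0.0847, with adjusted p = 0.282 and 0.0208 (Fisher's exact test). Both TM rates lay below both CON rates at 5 of the 6, the exception being 6123078 of the Gtf2h5 pair, where EC2 TM (0.571) was above EC1 CON (0.562).

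**Figure D4:**
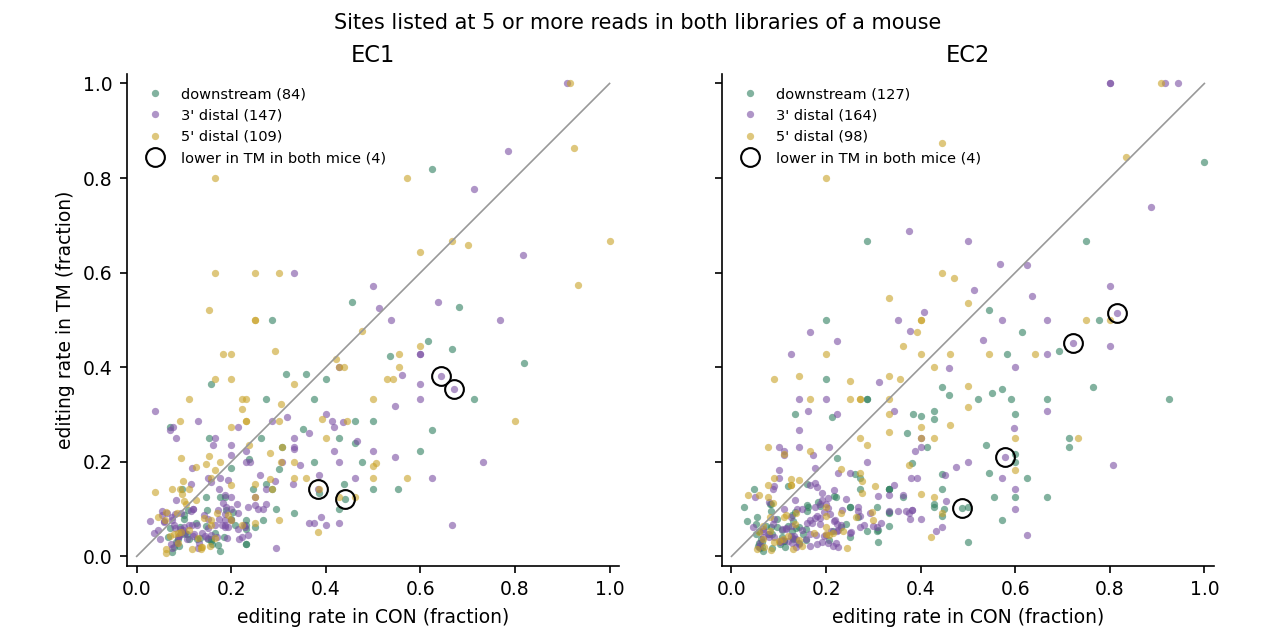
Editing rate in TM against CON (fractions of reads) for sites passed by either library of the mouse and read at least 5 times in each, EC1 left (340 sites) and EC2 right (389 sites); colours give the region, the line marks equal rates and circles the 4 sites lower in TM in both mice by the read test. Most points lie below the line (252 in EC1 and 301 in EC2 with the higher rate in CON).

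By the study's criterion, which asks for a rate at least 0.05 higher in one library with at least 5 reads, 3 altered reads and a rate of at most 0.95 there, 350 member sites had CON > TM in EC1 (40.2%, against 28.7% of all 24200 sites) and 335 in EC2 (38.5%, against 25.6%), and 141 in both (16.2%, against 7.35%). In the other direction 100 sites had CON < TM in EC1 (11.5%, against 18.8%) and 146 in EC2 (16.8%, against 22.9%), and 13 in both (1.49%, against 3.92%). The criterion uses the rates that chose the sites, so these counts are a description. By region, CON > TM in both mice held for 58 of 226 downstream sites, 67 of 369 in the 3′ distal and 16 of 276 in the 5′ distal region, and CON < TM in both for 3, 3 and 7. In 45 of the 871 sites (5.17%) the 2 mice met it in opposite directions, close to the 6.52% of all sites.

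Over elements, the mean rates went mostly one way. Of the 83 elements with 3 or more sites, 55 had a higher mean rate in CON in both mice and 3 in TM in both, against 52.4% and 11.7% of the 821 repeats of any kind with 3 or more passing sites. By region, higher in CON in both mice held for 24 of 30 downstream, 22 of 31 3′ distal and 9 of 22 5′ distal elements. The rates averaged here also chose the sites, and 386 of the 871 passed in CON libraries alone against 196 in TM libraries alone. An unlisted site counts as unedited in the mean of its element. The direction can thus come in part from the choice and listing of sites, which was not tested, so these counts are a description. Of the 12 elements with most sites, the 11 described here were the Gtf2h5 pair, the Arpin element, 3 of Snap23, 2 of Xrn1, and 1 each of Prrg4, Nipa1 and Crabp2.

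Snap23, whose product is a SNARE protein of membrane fusion, had 3 such elements. The first, a B1_Mus2 element in a UTR that vM21 gives the gene, had 15 sites with a mean rate of 0.0887 with CON and 0.0210 with TM in EC1, against 0.0664 and 0.0509 in EC2. The second, 1070 to 1144 bases past the gene and on the opposite strand, had 11 sites with 0.263, 0.0662, 0.296 and 0.273. The third, 1460 to 1551 bases past it, also on the opposite strand, had 13 sites with 0.0721, 0.0240, 0.189 and 0.0828. Unlisted sites enter these means as 0. In the first element 14, 8, 14 and 9 sites were listed, in the second 11, 5, 11 and 11, and in the third 9, 6, 12 and 13. All 3 elements had lower means in TM in both mice, but in the second and the third EC2 TM was above EC1 CON. In the second, 6 of the 11 sites had the higher rate in TM of EC2, at a median depth of 13 reads.

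Nipa1, a magnesium transporter gene, and Xrn1, the gene of the main cytoplasmic 5′-to-3′ exonuclease, had elements with low rates in TM. Of the 9 sites downstream of Nipa1 the libraries listed 8, 3, 9 and 5, and unlisted sites enter the means as 0. The mean over the 9 was 0.192 with CON and 0.0415 with TM in EC1, against 0.222 and 0.0416 in EC2. At the most edited A of Nipa1, 55977620, 16 of 29 reads were altered with CON and 2 of 14 with TM in EC1, against 30 of 55 and 6 of 34 in EC2. The 2 Xrn1 elements, of opposite orientation with 934 bases from the end of one to the start of the other and 87.5% identical as reverse complements, had means of 0.156, 0.0299, 0.188 and 0.0446 over 8 sites, and of 0.161, 0.0401, 0.243 and 0.0477 over 9. Of the Xrn1 sites 7, 4, 7 and 7 of the 8 were listed, and 6, 5, 9 and 6 of the 9. In these 3 elements both TM libraries were below both CON libraries. The depth of the Xrn1 elements went the other way, with medians of 16.5 to 25 reads in CON and 33 to 50.5 in TM.

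Prrg4, a membrane protein gene of the Gla family, had 10 sites in an element 1227 to 1302 bases past its end, in no annotated transcript, with means of 0.108, 0.0311, 0.208 and 0.0439. Of these 10 sites 8, 3, 9 and 8 were listed, and the others enter as 0. The Arpin element was shallow, with a median depth in EC1 of 7 reads with CON and 1 with TM, where 2 of its 12 sites were listed, and of 8.5 and 3.5 in EC2. Its means were 0.385, 0.167, 0.613 and 0.451. The 8 sites before Crabp2, a retinoic acid carrier, lie in an intron of Mrpl24, a mitochondrial ribosome protein gene, and had 0.166, 0.143, 0.116 and 0.0930, with 4 sites higher in CON and 4 in TM in each mouse.

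**Figure D5:**
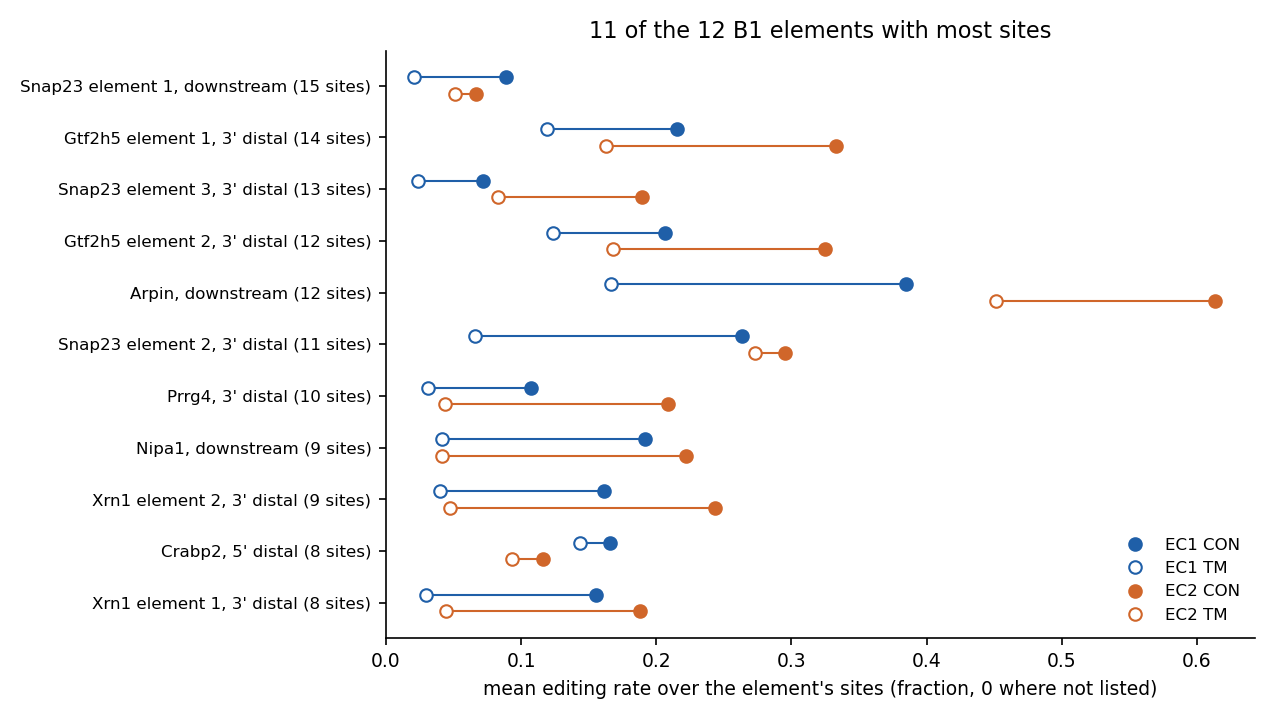
Mean editing rate (fraction of reads, 0 where a library does not list the site) over the sites of 11 of the 12 B1 elements with most sites; filled points are CON, open points TM, blue EC1 and orange EC2, and elements of 1 gene are numbered in the direction of the gene. TM was below CON in both mice in each of the 11 elements shown.

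Few sites had the higher rate in TM in both mice. Among the 283 members listed at 5 or more reads in all 4 libraries, 160 (56.5%) had the higher rate in CON in both mice. Over all such sites of the series the share was 35.3%. The higher rate was in TM in both mice at 26 of the 283, against 17% of all such sites of the series. These rates also chose the sites, so the counts are a description. Both CON rates were above both TM rates in 137 of the 283, against 26.9% of all 7407 such sites of the series. Both TM rates were above both CON rates in 10 of the 283, against 11.2% of the 7407. The 5 members with the largest TM minus CON in both mice had 5 to 24 reads a library. The largest, in an intron of 0610010F05Rik, had 1 altered of 7 reads with CON and 2 of 6 with TM in EC1, against 1 of 8 and 3 of 7 in EC2. The site downstream of Mrps15, a mitochondrial ribosome protein gene, had 1 of 14, 3 of 11, 2 of 15 and 3 of 10. The sites assigned to Chd2 and Fbrs had TM minus CON of 0.103 and 0.0913 in EC1 and 0.0758 and 0.0731 in EC2. That assigned to Crybb1 had 11 of 14, 12 of 14, 4 of 5 and 9 of 9 reads altered. None of the 5 was called by the read test where it was tested. Of the 283, 7 had rates over 0.5 in all 4 libraries, 5 of them 3′ distal, the Crybb1 site included, and 2 of them 5′ distal.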

How the data were processed

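RNA of lung ECs from 2 i-KO mice was sequenced after ribosomal RNA depletion, with 1 CON and 1 TM library per mouse, grouped by the labels. The submitters' processing notes name Trimmomatic 0.38, STAR 2.6.1a and HTSeq 0.11.2, with the build mm10. Variants came from BCFtools mpileup, from which the authors took A to G on genes of the plus strand and T to C on those of the minus strand. For each library they deposited counts of reference and of altered reads, and their fraction (the editing rate), set to 0 at a site not listed. Gene counts were deposited raw, and were used here only for Adar and the cell type markers.

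The columns of the site table were given to libraries by the study's supplementary list of selected sites, where 1998 of 1998 sites held had equal values (0 if CON and TM were exchanged). Repeat starts, counted from 0, had 1 added. Annotation and sequence were those of GENCODE vM21, possibly another release than the authors used. Element pairs were aligned locally with Biopython 1.88 (match 2, mismatch -2, gap opening -5, extension -1). The rest was done in Python 3.11.15 with numpy 2.4.6, pandas 2.3.3, scipy 1.17.1 and matplotlib 3.10.9.

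Rates were compared within each mouse, over sites of either library, and reads by Fisher's exact test, with Benjamini-Hochberg adjustment over all sites tested. Sites for that test were chosen on the other mouse. Intervals are Wilson intervals at 95% and cover counting error only, since the reads carry no molecular identifiers. The test was tried on simulated data for EC1 (3000 sites): of 400 sites with rates of 0.4 and 0.1, 98 (24.5%) were recovered, with 2 false calls among 2600 unchanged sites. These sites were drawn with their real depths from all sites of the series, and the adjustment ran over the 3000. The recovered share is thus not that of the member sites.

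Both cultures of a pair came from the same mouse. Deviations from the group means correlated between CON and TM of a mouse with r = 0.141 over the 283 members read in all 4 libraries and with 0.383 over all 7407 such sites, which is across sites, not samples.

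The members and lists were chosen with earlier results of these data known. The text names the 12 elements with most sites, except 1 that is not reported here, every site called in both mice, the next by the larger of the 2 p-values up to 10 sites, and the 5 sites with the largest TM minus CON in both mice among those read at least 5 times in all libraries. Alternatives were other limits on depth, altered reads, rate and difference, other weights, the block by mouse, Bonferroni adjustment and each mouse left out.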

Additional observations from a re-analysis of the deposited data

How the results depend on the processing

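The mean difference CON minus TM kept its direction under all 11 alternatives, from 0.0581 with each B1 element weighted equally (0.0312 in EC2) to 0.108 at 5 or more altered reads, and from 0.0743 to 0.0945 with 1 mouse left out. Without the replicate block the 4 libraries were compared over all 871 sites, which gave 0.0624 (exact permutation p = 0.333, the smallest it can give). The lower value comes from the larger set of sites, since paired by mouse over the same 871 it was 0.0714 in EC1 and 0.0534 in EC2. The 141 sites with CON > TM in both mice became 88 at 20 reads, 90 at 5 altered reads and 90 at a difference of 0.10. The 13 with CON < TM in both became 4 at 20 reads, 1 at 5 altered reads, 4 where both libraries listed the site and 8 at a difference of 0.10. The 4 sites lower in TM by the read test in both mice became 1 with Bonferroni adjustment, 5 at 10 or at 20 reads, 4 over sites of any library, and 43 of 283 in the Mantel-Haenszel test, which takes each mouse as a replicate block. Over sites of any library and in the Mantel-Haenszel test, the reads tested also chose the sites. The share of edited adenosines opposite a C was 26.7% under other alignment scores and 32.0% over sites that passed in 2 or more libraries, both chosen after seeing the data. Apart from the stricter limits, which leave fewer sites, the cause of these shifts was not tested. With 2 mice the exact sign permutation test gives no p below 0.5. Members that passed in a library had median depths of 19 to 25 reads there. On simulated data for EC1, with sites drawn from the whole series, the read test recovered 24.5% of the sites with rates of 0.4 and 0.1. Large differences could thus be missed site by site, though the recovered share for member sites was not measured.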
